A study of Mus musculus with 6 samples.

Results

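Malat1, Meg3, Miat, Rian and Snhg11, long noncoding RNAs (lncRNAs) that are abundant in neurons, were followed in the newborn mouse neocortex after conditional loss of the transcription factor Tcf4. They were chosen by name, and all 5 were among the 15703 genes of the deposited expression table. Of these, 4 were found by their symbol, and Rian, whose symbol field is empty, was found by its Ensembl identifier through the GENCODE M21 annotation. RNA was sequenced from whole neocortex on postnatal day 0 in 6 libraries of strain C57BL/6. The 3 wild-type libraries (WT) carry no further allele in their labels, and the 3 conditional knockout libraries (cKO) have the genotype Tcf4 f/f; Emx1Cre/+. Cre expressed from Emx1 acts in the lineage of cortical excitatory neurons and glia, so cells of other origin in the tissue keep their Tcf4 alleles. The series asks how expression changes once Tcf4 is lost.

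A lncRNA is a long transcript that is not known to work through a protein product. Malat1 is retained in the nucleus, where it gathers at nuclear speckles, bodies rich in splicing factors, and it ends in a structured tail rather than an ordinary poly(A) tail. Miat, also called Gomafu, is a nuclear RNA of neurons that carries repeats resembling the branch point sequence of introns and binds splicing proteins. Meg3 and Rian lie in the imprinted Dlk1-Dio3 domain and are expressed from the maternal chromosome, Rian being the host of a large group of small nucleolar RNAs (snoRNAs). Snhg11 is a snoRNA host gene with strong expression in neurons.

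In this annotation (build mm10) Malat1 (ENSMUSG00000092341, chromosome 19, 5795690 to 5802672, minus strand) is a single exon of 6983 bases. Miat (ENSMUSG00000097767, chromosome 5, 112213228 to 112229395, minus strand) has 9293 exonic bases. Meg3 (ENSMUSG00000021268, chromosome 12, 109541001 to 109571726, plus strand) and Rian (ENSMUSG00000097451, chromosome 12, 109603940 to 109661716, plus strand) have 18089 and 18234 exonic bases. The span of Rian holds 13 annotated snoRNAs and 4 miRNAs on its strand, and that of Meg3 holds 2 miRNAs. Snhg11 (ENSMUSG00000044349, chromosome 2, 158375638 to 158386145, plus strand) has 8521 exonic bases and 2 snoRNAs, and it is classed as protein coding in this release, whereas the other 4 have noncoding classes.

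Depth recovered from the table was 25.3 to 28.8 M (1e6) approximate reads per library. Tcf4 fell from 74.1 ± 2.45 to 57.4 ± 2.76 FPKM (SD, n = 3 each; limma adjusted p = 0.00411), a value over all exons and all cells of the tissue. Tcf3 and Tcf12, the other E-protein genes, differed by 0.22 and 0.21 on the log2 scale (limma adjusted p = 0.0465 and 0.0986), and the call of Tcf3 was lost without 5 of the libraries (up to 0.184 without cKO 2). Xist and the Y-linked genes of the table showed 4 female libraries and 2 male libraries, WT 1 and cKO 3. All 23 neuronal markers examined were measured and none was at 0 in any library. Their summed level was 3680 to 3700 FPKM in WT and 3276 to 3440 FPKM in cKO. All 10 astrocyte markers and 10 of 11 microglial markers were also measured, with summed levels of 287 to 341 and 27.9 to 32.1 FPKM in WT and of 231 to 266 and 16.3 to 23.3 FPKM in cKO. The part of these markers in the lncRNA values was not tested. The labels give each library its own code but do not state that these are separate animals, so p-values measure only the spread between these libraries.

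None of the 5 lncRNAs was called different between the genotypes. A gene was called at a Benjamini-Hochberg adjusted p under 0.05 in limma, fitted on log2(FPKM + 1) across all genes, where FPKM is fragments scaled to exon length and to library size. By this rule 15.8% of all genes were called, 7.22% higher and 8.59% lower in cKO. At an unadjusted p under 0.05, 2 of the 5 (Meg3 and Rian) were higher in cKO, against 32.2% of all genes in either direction and 15.8% higher. A limma-voom fit on approximate read counts called the same 2, and 19.5% of 15655 genes in either direction, with 10.8% higher. The fitted log2 difference (cKO minus WT) was above 0 for all 5, from 0.05 for Snhg11 to 0.30 for Meg3. The median was 0.22, against 0.0017 over all genes and 0.055 over the 1066 genes with a long noncoding class. Correcting each library for exon length and GC content lowered all 5 differences. They were then 0.24 for Malat1, 0.25 for Meg3, 0.12 for Miat, 0.13 for Rian and 0.018 for Snhg11. The difference of Snhg11 turned to −0.017 without cKO 3. Groups that did not overlap were found for 2 of 5, against 37.3% of all genes (18.5% with every cKO library higher). In whole tissue, a change in the number of expressing cells and a change in RNA per cell cannot be told apart.

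**Figure D1:**
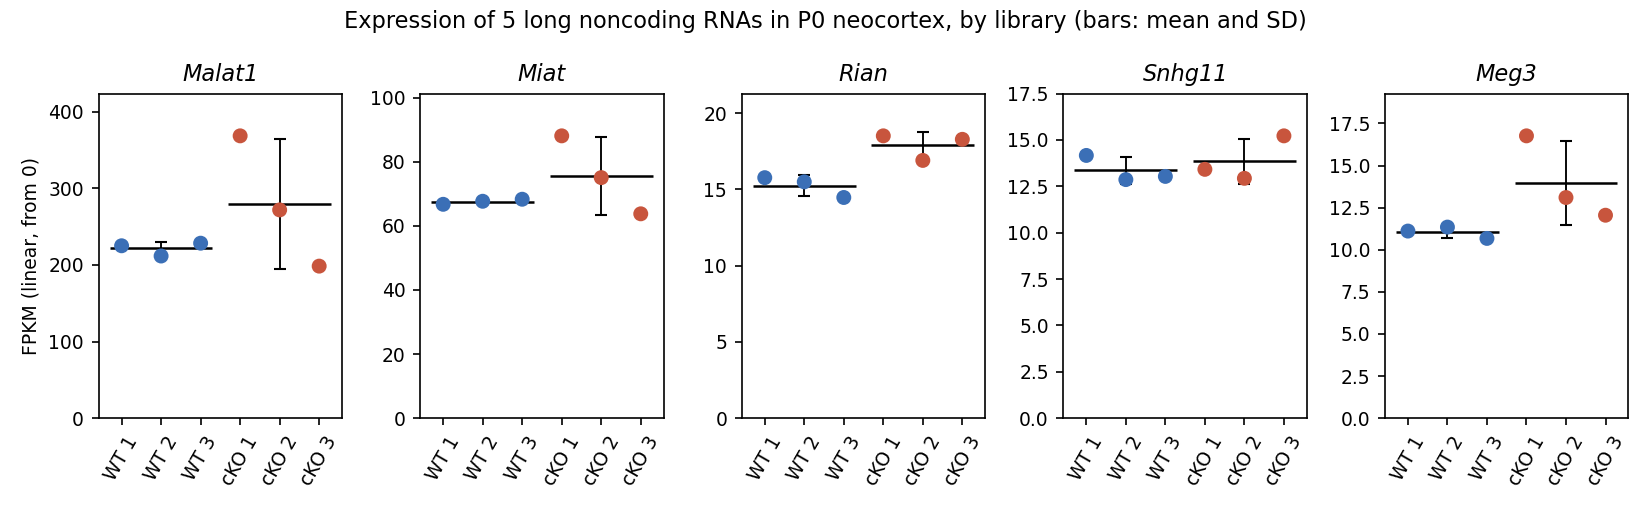
FPKM (linear axes from 0) of the 5 lncRNAs in each WT (blue) and cKO (red) library, with the mean and SD of each group in black. The WT libraries lie close together for every lncRNA, and cKO 1 is the highest library for Malat1 (369 FPKM), Miat (88.1 FPKM), Rian (18.5 FPKM) and Meg3 (16.8 FPKM).

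Malat1 was the most abundant of the 5 and ranked first among the genes with a long noncoding class, at position 83 of all 15703 genes by mean FPKM. The WT libraries gave 225, 212 and 228 FPKM and the cKO libraries 369, 272 and 199 FPKM. The first 2 cKO libraries lay above every WT library and the third lay below every WT library, so the groups overlapped. The means were 222 ± 8.85 and 280 ± 85.3 FPKM (SD, n = 3 each), a log2 difference of 0.29 (SE 0.191, 95% interval −0.15 to 0.73, limma adjusted p = 0.333). The interval spans 0.9-fold to 1.66-fold. Leaving out cKO 1 brought the difference to 0.07 (adjusted p = 0.757), and leaving out cKO 3 brought it to 0.51 and past the threshold (adjusted p = 0.0222).

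The promoter of Malat1 is shown because Tcf4 is an E-protein, a class of factor that binds E-boxes. It is taken from RefSeq (GRCm38.p6), from 250 bases before the start site to 50 bases after it, at chr19:5802623-5802922 on the minus strand. Capitals mark the only match to the E-box pattern CANNTG, searched on both strands.
Malat1 promoter: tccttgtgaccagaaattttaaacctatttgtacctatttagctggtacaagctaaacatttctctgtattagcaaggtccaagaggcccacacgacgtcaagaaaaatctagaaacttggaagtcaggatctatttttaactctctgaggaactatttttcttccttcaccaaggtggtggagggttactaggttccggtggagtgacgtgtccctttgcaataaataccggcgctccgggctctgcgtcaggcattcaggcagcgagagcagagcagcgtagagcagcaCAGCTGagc
The match, CAGCTG, begins at base 42 counted from the start site. Of 32851 RefSeq promoter windows of this length, 72.3% hold a CANNTG. A match describes letters and is not a measured binding site.

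Malat1 took 0.126% to 0.236% of the approximate reads of a library. Neat1, the lncRNA that builds paraspeckles and lies 22.0 kb upstream of Malat1 on the same strand, measured 0.210 ± 0.0202 FPKM in WT against 0.176 ± 0.0182 FPKM in cKO (limma adjusted p = 0.622). Among 10 measured genes within 100 kb of Malat1, 4 were higher in cKO and none was lower, against 7.22% and 8.59% of all genes. Ehbp1l1, which encodes a protein of endosomal trafficking, rose from 3.05 ± 0.207 to 4.57 ± 0.546 FPKM (limma adjusted p = 0.0103). Dpf2, a chromatin remodelling subunit of the BAF complex, rose from 7.69 ± 1.042 to 10.5 ± 0.945 FPKM (limma adjusted p = 0.0205). The other two were Frmd8 (2.10 ± 0.232 to 2.97 ± 0.0750 FPKM) and Ltbp3, which encodes a binding protein of latent TGF-beta (3.98 ± 0.148 to 5.48 ± 0.711 FPKM). The call of Ehbp1l1 held without each library in turn. Removing any of 4 libraries ended the call of Dpf2 and of Frmd8 (highest adjusted p 0.0867 and 0.0649, both without cKO 1), and removing any of 3 ended that of Ltbp3 (0.0956 without cKO 2).

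Miat was the next in level, at rank 503 of all genes. Its WT values were 66.7, 67.7 and 68.3 FPKM, and its cKO values 88.1, 75.0 and 63.7 FPKM. As for Malat1, cKO 1 and cKO 2 lay above the WT range and cKO 3 below it. The means were 67.6 ± 0.796 and 75.6 ± 12.2 FPKM, a log2 difference of 0.15 (SE 0.0998, 95% interval −0.07 to 0.37, limma adjusted p = 0.332). The difference was 0.03 without cKO 1 and 0.26 without cKO 3, and neither passed (adjusted p = 0.823 and 0.069).

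The repeats for which Miat is known are printed here from its longest GENCODE transcript (9163 bases). This transcript holds 11 copies of ACTAAC on its own strand, against a median of 0 over 29786 longest transcripts of at least 1 kb, of which 5 hold more. Neither Malat1 nor Rian holds a copy in its longest transcript, and Meg3 and Snhg11 hold 1 each. In the stretch from transcript base 4937 to base 5176, ACTAAC is in capitals.
Miat repeats: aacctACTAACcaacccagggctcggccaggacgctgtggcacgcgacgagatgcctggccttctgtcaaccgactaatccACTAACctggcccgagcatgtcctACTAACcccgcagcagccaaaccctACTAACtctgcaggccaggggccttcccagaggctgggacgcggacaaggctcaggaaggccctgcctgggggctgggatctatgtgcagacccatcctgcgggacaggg
This window holds 4 of the copies. Values of Miat are for the whole gene. Whether reads over exons shared with other genes were kept in the counting is not given in the sources used here. Of its exonic bases, 30.4% overlap exons of other annotated genes, 2260 bases of them on the opposite strand. Gm26953, the antisense lncRNA there, measured 0.507 ± 0.137 FPKM in WT against 0.393 ± 0.137 FPKM in cKO, and without strand its reads cannot be told apart from those of Miat. None of the 4 measured genes within 100 kb of Miat was called, none had an unadjusted p under 0.05 in limma, and limma-voom called none. Over all genes, 15.8% were called and 32.2% had an unadjusted p under 0.05, and limma-voom called 19.5% of 15655 genes. So few neighbours can hold none at these shares.

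Meg3 was lowest of the 5 in WT, with 11.1, 11.3 and 10.7 FPKM, and its cKO values were 16.8, 13.1 and 12.1 FPKM. Every cKO library was above every WT library, with cKO 1 far above the rest and cKO 3 closest to WT. The means were 11.04 ± 0.341 and 14.0 ± 2.47 FPKM, a 1.27-fold higher level in cKO with a log2 difference of 0.30 (SE 0.104, 95% interval 0.07 to 0.53, limma adjusted p = 0.0769). It passed in the limma-voom fit (log2 difference 0.33, adjusted p = 0.0239) and without cKO 3 (0.39, adjusted p = 0.0388), and without cKO 1 it was 0.17 (adjusted p = 0.201).

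Rian had a smaller spread across the cKO libraries. Its WT values were 15.8, 15.5 and 14.5 FPKM, and those in cKO were 18.5, 16.9 and 18.3 FPKM. The lowest cKO library was above the highest WT library, and here cKO 3 was nearly as high as cKO 1. The means were 15.2 ± 0.685 and 17.9 ± 0.872 FPKM, 1.17-fold higher in cKO, with a log2 difference of 0.22 (SE 0.0669, 95% interval 0.07 to 0.37, limma adjusted p = 0.0526). The adjusted p was 0.0606 to 0.156 when each library was left out in turn, 0.049 when only genes with a mean of at least 1 FPKM were tested, and 0.0179 in the limma-voom fit. A correction of each library for exon length and GC content lowered the difference to 0.13 (adjusted p = 0.193).

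The promoters of Meg3 and Rian are printed because both RNAs belong to one domain and are the pair whose groups did not overlap. They come from RefSeq (GRCm38.p6, plus strand), at chr12:109540746-109541045 and chr12:109603695-109603994, with CANNTG in capitals.
Meg3 promoter: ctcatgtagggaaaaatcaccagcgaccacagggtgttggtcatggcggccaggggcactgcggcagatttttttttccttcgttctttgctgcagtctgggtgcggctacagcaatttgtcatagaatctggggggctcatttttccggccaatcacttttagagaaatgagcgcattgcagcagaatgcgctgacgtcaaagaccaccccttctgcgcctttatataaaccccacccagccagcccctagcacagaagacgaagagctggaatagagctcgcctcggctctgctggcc
Rian promoter: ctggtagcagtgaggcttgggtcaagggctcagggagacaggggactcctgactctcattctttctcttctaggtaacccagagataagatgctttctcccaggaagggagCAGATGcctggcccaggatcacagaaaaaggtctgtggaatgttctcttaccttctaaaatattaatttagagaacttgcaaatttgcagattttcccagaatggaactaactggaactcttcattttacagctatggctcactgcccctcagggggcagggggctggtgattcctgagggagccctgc
The Meg3 window has no match, and the Rian window has CAGATG, which begins at base −139. A downstream RefSeq start of Meg3 has CATGTG at base −172. For the other members, the Miat window held no CANNTG and the Snhg11 window held CAGTTG at base −105 and CAGCTG at base −61. No match says only that these letters are not in the window.

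The remaining measured genes of the Dlk1-Dio3 domain did not pass. Mirg, the miRNA host at the far end of the maternally expressed group, had WT values of 1.35, 1.18 and 1.223 FPKM and cKO values of 1.30, 1.59 and 1.63 FPKM (limma adjusted p = 0.251). Its cKO 1 value lay within the WT range, unlike that of Meg3. Dlk1, a paternally expressed Notch-related ligand, was at 0.291 ± 0.0159 and 0.287 ± 0.104 FPKM. B830012L14Rik, a lncRNA between Rian and Mirg, was at 0.249 ± 0.0530 and 0.284 ± 0.0418 FPKM. Begain, a gene of the postsynaptic density next to the domain, was at 10.7 ± 0.434 and 10.3 ± 1.202 FPKM. Of the 5 measured genes listed for the domain (Dlk1, Meg3, Rian, Mirg and Begain), none passed limma's test, against 15.8% of all genes. An unadjusted p under 0.05 was found for 2, against 32.2% of all genes. The limma-voom fit called 2, against 19.5% of 15655 genes. In both counts the 2 are Meg3 and Rian, already given above. Rtl1 and Dio3 were not analysed here.

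Meg3 and Rian did not keep a fixed proportion. The Rian to Meg3 ratio of FPKM was 1.42, 1.37 and 1.36 in WT and 1.10, 1.29 and 1.52 in cKO. The WT libraries lay within a narrow range that the cKO libraries straddled. The means were 1.38 ± 0.0343 and 1.30 ± 0.207, and the log2 ratios did not differ beyond this spread (exact permutation test, 2-sided, p = 0.7, n = 3 each, where 0.1 is the smallest p that 3 against 3 allows).

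For Snhg11 the WT libraries gave 14.2, 12.9 and 13.03 FPKM and the cKO libraries 13.4, 12.9 and 15.2 FPKM. The groups overlapped, and the highest library was cKO 3 rather than cKO 1. Means were 13.4 ± 0.708 and 13.9 ± 1.21 FPKM, with a log2 difference of 0.05 (SE 0.0769, 95% interval −0.12 to 0.22, limma adjusted p = 0.702). The interval covers 0.918-fold to 1.16-fold. Both measured neighbours within 100 kb were uncalled, with no unadjusted p under 0.05 in limma and no limma-voom call. Over all genes these shares were 15.8%, 32.2% and, by limma-voom, 19.5% of 15655 genes. The neighbours were Snhg17, a further snoRNA host (4.53 ± 0.707 and 4.33 ± 0.491 FPKM), and Ralgapb, a subunit of a Ral GTPase-activating complex (11.6 ± 1.11 and 12.6 ± 0.207 FPKM).

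Levels of different genes were compared in FPKM, which is scaled to an exon length that the sources used here do not give. The annotated exons of Rian (18234 bases) are much longer in all than its longest transcript (8089 bases), whereas for Malat1 both are 6983 bases, so ratios between genes depend on the length used. In all 6 libraries Malat1 exceeded Miat (3.11-fold to 4.19-fold), Miat exceeded Rian (3.49-fold to 4.76-fold) and Rian exceeded Snhg11 (1.11-fold to 1.38-fold). Snhg11 exceeded Meg3 in 4 of 6 libraries. The ratio of Snhg11 to Meg3 was 1.13 to 1.28 in WT and 0.800 to 1.26 in cKO, so these neighbours in the order were not separated beyond the spread of the cKO libraries.

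The spread among cKO libraries set Malat1, Meg3 and Miat apart from Rian and Snhg11. In WT the highest library exceeded the lowest by 1.08-fold for Malat1, 1.06-fold for Meg3 and 1.02-fold for Miat, and in cKO by 1.86-fold, 1.39-fold and 1.38-fold. The SD of log2(FPKM + 1) across the cKO libraries was 0.44 for Malat1, larger than in 99.4% of the genes with a mean of at least 1 FPKM, and it was larger than in 95.5% of them for both Meg3 and Miat. For Rian (0.07) and Snhg11 (0.12) it was larger than in 41.4% and 72.2%. All of Malat1, Meg3 and Miat were highest in cKO 1, intermediate in cKO 2 and lowest in cKO 3. That order was seen in 20.8% of all genes, 19.8% of protein-coding genes and 29.8% of the 1066 genes with a long noncoding class.

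In other features as well, cKO 1 lay at an end of the range. The 21 genes of the mitochondrial chromosome summed to 17017, 16960 and 19409 FPKM in WT and to 12605, 15872 and 15212 FPKM in cKO, lowest in cKO 1. The 79 ribosomal protein genes summed to 16081, 16433 and 19168 FPKM in the WT libraries and 14028, 15211 and 15880 FPKM in the cKO libraries, again lowest in cKO 1. Sense intronic transcripts, noncoding genes annotated inside introns, had a median log2 deviation from their own 6-library mean of 0.14 in cKO 1, 0.09 in cKO 2 and −0.08 in cKO 3 (40 genes), and between −0.08 and −0.03 in WT. For the 210 antisense genes this was 0.11, 0.05 and −0.02 in cKO, and for 11528 protein-coding genes it stayed between −0.01 and 0.01 in all libraries. In the class of long intergenic noncoding RNAs, which holds Malat1, Meg3 and Miat, it was smaller (227 genes). There it was 0.06 in cKO 1, 0.04 in cKO 2 and −0.03 in cKO 3. The male cKO library, cKO 3, is the low end of the order, and with only the 4 female libraries the log2 difference was 0.52 for Malat1, 0.40 for Meg3 and 0.25 for Miat (adjusted p = 0.0631, 0.107 and 0.18). With sex as a term in all 6 libraries, the log2 differences were 0.29, 0.30 and 0.15 (limma adjusted p = 0.249, 0.0892 and 0.306). The male WT library, WT 1, lay between the female WT libraries for Malat1 and Meg3 and was the lowest WT library for Miat. Beyond these fits, the part of these features in the lncRNA values was not tested.

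The genes closest in pattern to each lncRNA were sought among 13070 genes with a mean of at least 1 FPKM, by the root-mean-square (RMS) difference of the centred log2(FPKM + 1) values over the 6 libraries. Nearest to Malat1 were 1110003F10Rik and Gm43859, both in the GENCODE class of transcribed regions still lacking experimental evidence, and Mbd6, which encodes a methyl-CpG-binding domain protein (RMS difference 0.056, 0.0981 and 0.109). Mbd6 had 9.29, 8.497 and 9.74 FPKM in the WT libraries and 14.4, 11.7 and 9.71 FPKM in the cKO libraries. Nearest to Miat were Prpf40b, a splicing factor of the early spliceosome, Trmt13, a tRNA methyltransferase, and Leng8 (0.0316 to 0.0335). Leng8 had 31.0, 30.1 and 32.2 FPKM in the WT libraries and 41.0, 36.3 and 29.6 FPKM in the cKO libraries, whose order is that of Miat in cKO.

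Nearest to Meg3 was Arhgef1, with an RMS difference of 0.0111 and WT values of 11.3, 11.7 and 11.1 FPKM beside cKO values of 17.3, 13.5 and 12.6 FPKM. Mapk1ip1 and the zinc finger gene Zfp57 followed (0.0294 and 0.0355). Zfp57 rose from 66.8 ± 1.93 to 82.4 ± 10.9 FPKM (limma adjusted p = 0.0476). Removing any of 5 libraries ended this call (highest adjusted p 0.129, without WT 1). Nearest to Rian were Rhbdd3, the protease gene Tasp1 and the kinase gene Hipk3 (0.0163 to 0.0224), none of them called. Nearest to Snhg11 were Mettl18, the cell-surface gene Cd47 and Il17d (0.0207 to 0.0238), also uncalled. No gene was shared between these groups of 3.

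**Figure D2:**
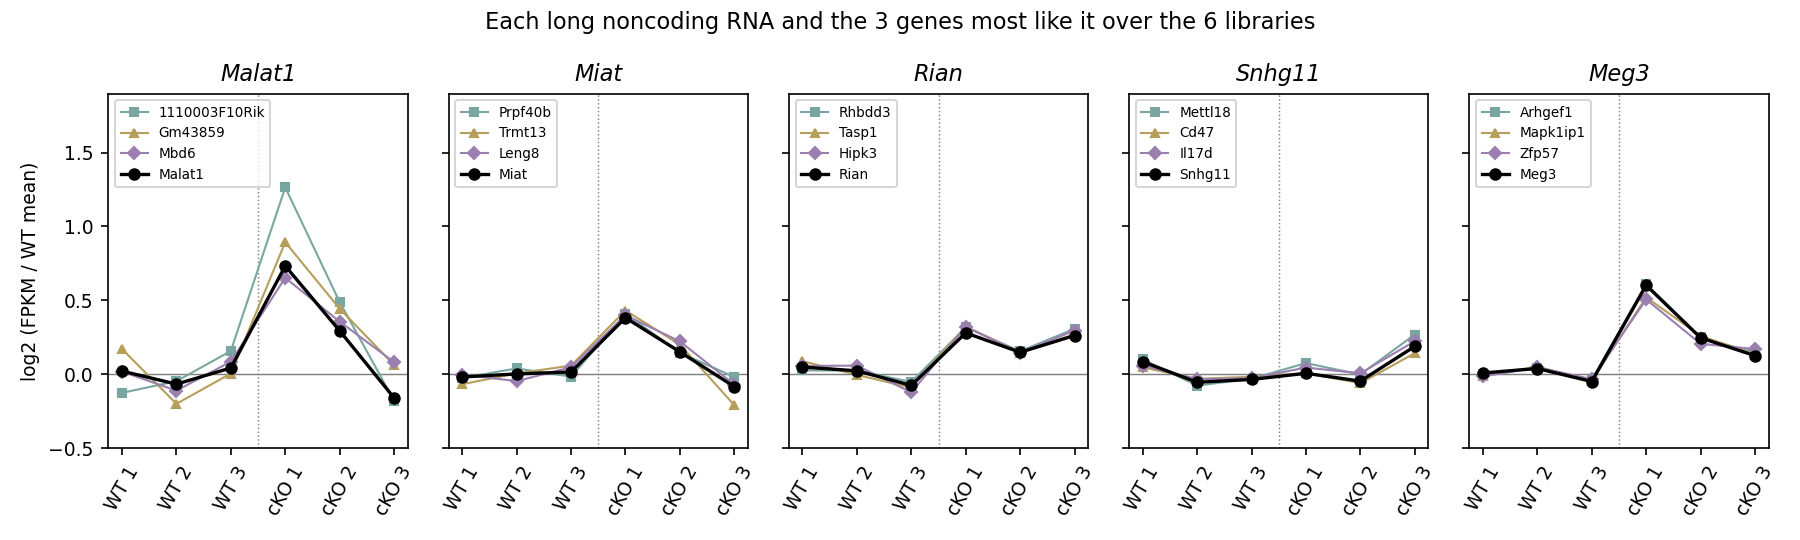
Log2 of FPKM over the gene's WT mean (vertical axis, no unit) in each of the 6 libraries for every lncRNA (black) and the 3 genes with the smallest RMS difference from it (colours). Malat1, Miat and Meg3 peak in cKO 1 and decline to cKO 3, while Rian is raised in all 3 cKO libraries and Snhg11 is highest in cKO 3.

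**Figure D3:**
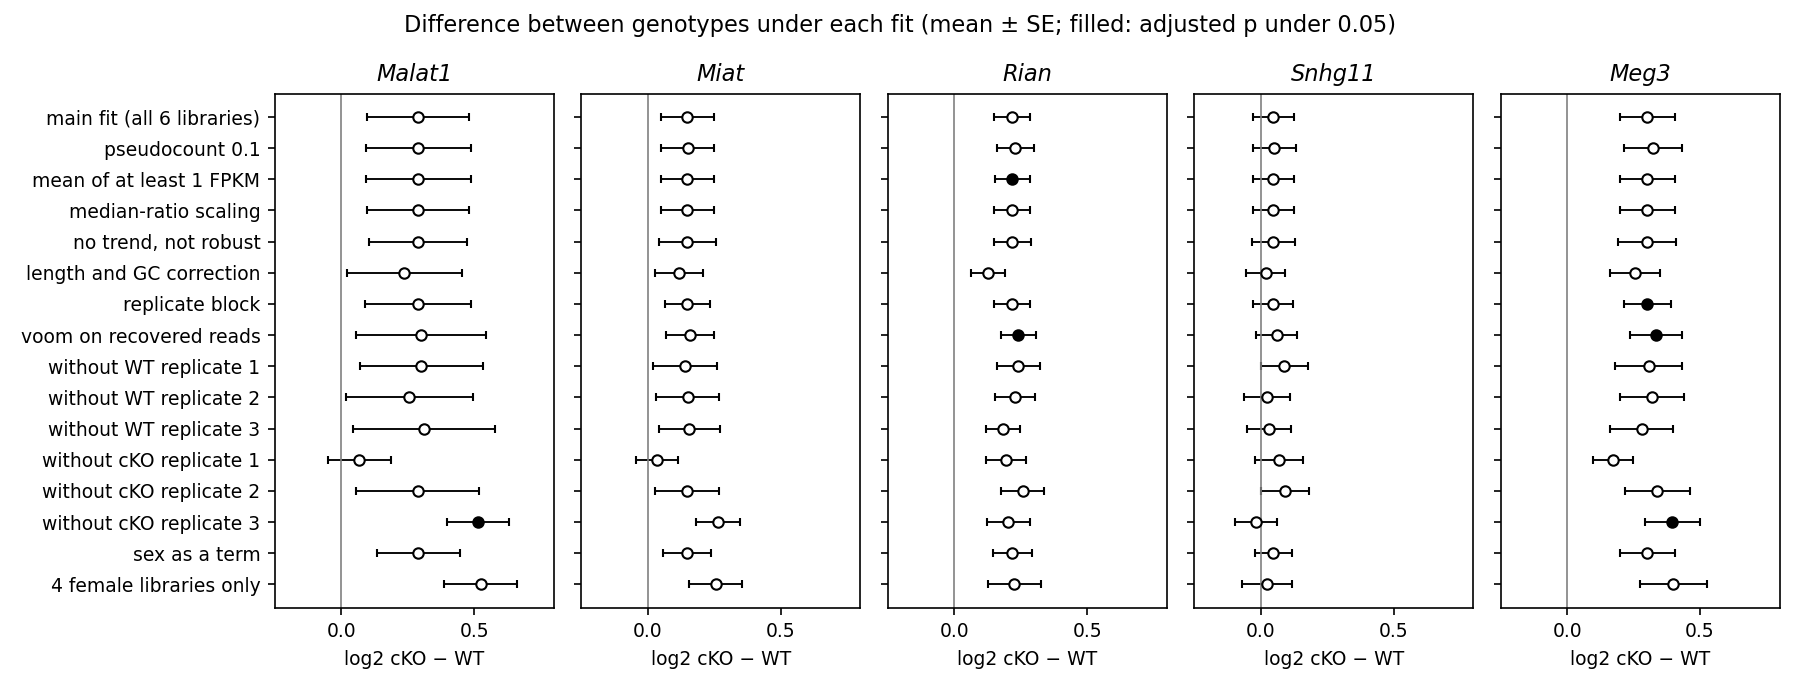
Log2 difference between cKO and WT (horizontal axis) of each lncRNA with its SE, under the fit on all 6 libraries and 15 alternatives (vertical axis), filled where the adjusted p is under 0.05. Malat1 moves from 0.07 without cKO 1 to 0.51 without cKO 3 and 0.52 with the 4 female libraries, whereas Rian stays between 0.13 and 0.26.

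**Figure D4:**
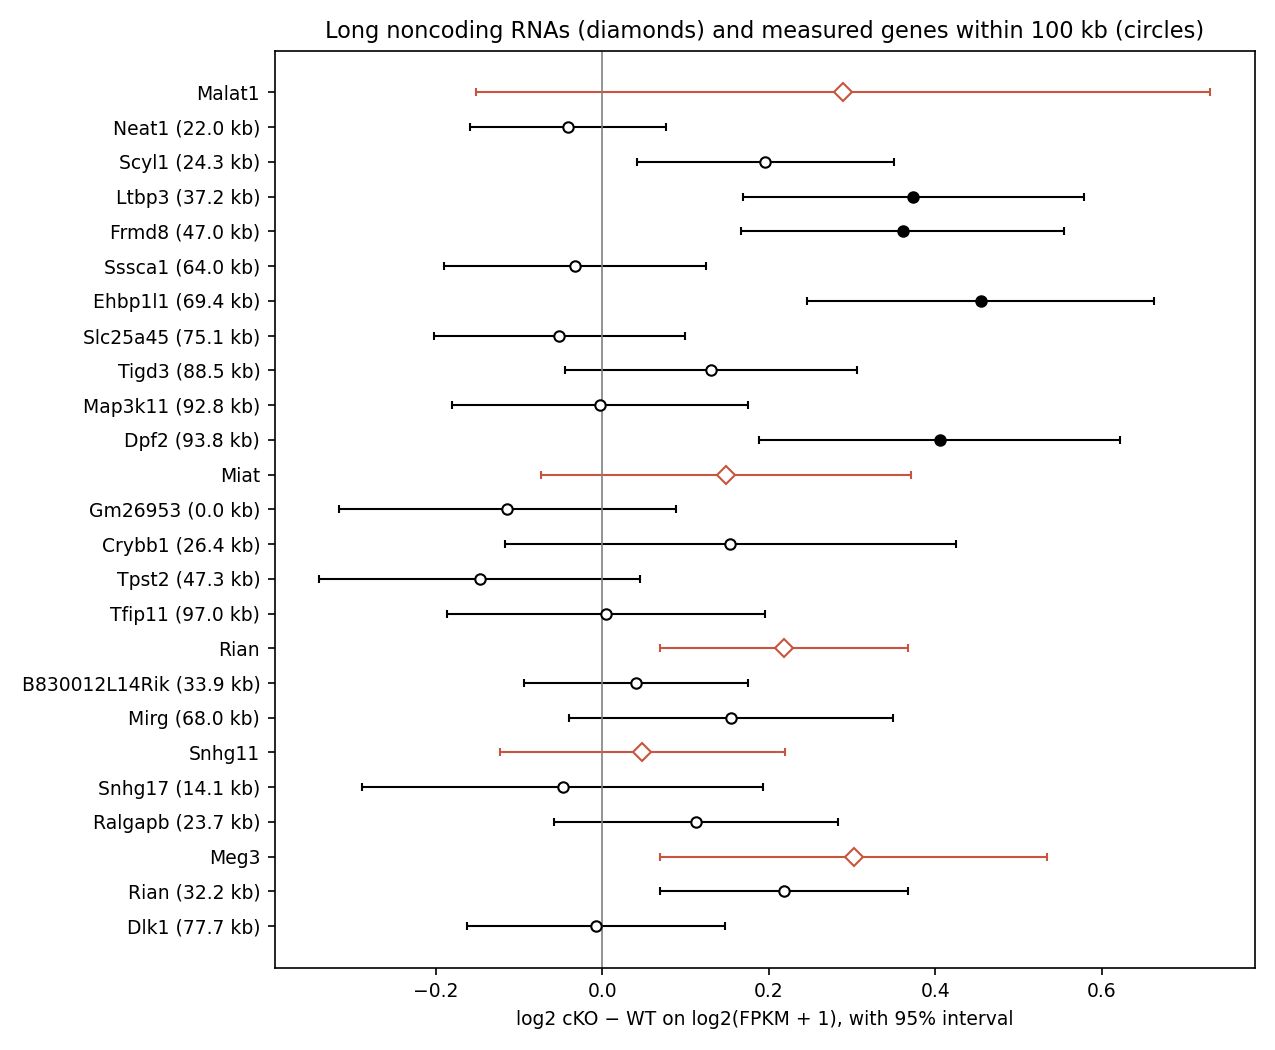
Log2 difference with 95% interval (horizontal axis) of the 5 lncRNAs (diamonds) and of the measured genes within 100 kb (circles, ordered by distance in kb), filled where called. The 4 filled circles are Ltbp3, Frmd8, Ehbp1l1 and Dpf2 near Malat1.

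Among the 1066 genes with a long noncoding class, 115 were higher and 69 lower in cKO, which is 10.8% and 6.47% (17.3% in either direction), and among protein-coding genes 7.09% were higher and 7.48% lower. Of 27 other measured brain lncRNAs on a list of such genes, 4 rose, 5 fell and 18 did not pass, with a median log2 difference of 0.08. Oip5os1, the conserved lncRNA also called Cyrano, fell from 63.7 ± 3.84 to 45.3 ± 2.77 FPKM (limma adjusted p = 0.0017). Mir9-3hg, a host of the neural miRNA miR-9, was lower in cKO, at 9.01 ± 0.571 against 13.5 ± 1.041 FPKM (limma adjusted p = 0.00181). Mir124-2hg, a host of the neuronal miRNA miR-124, rose from 13.4 ± 0.760 to 18.0 ± 1.05 FPKM (limma adjusted p = 0.0054). These 3 calls held without each library in turn.

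Of 37 other imprinted genes measured, 4 rose, 1 fell and 32 did not pass, with a median log2 difference of 0.06. For comparison, 15.8% of all genes were called in either direction. Peg10, a retrotransposon-derived gene, rose from 4.12 ± 0.485 to 7.10 ± 0.702 FPKM (limma adjusted p = 0.00175). Magel2 rose from 0.909 ± 0.153 to 1.604 ± 0.130 FPKM and Ndn, its neighbour in the Prader-Willi region, from 62.5 ± 1.34 to 77.1 ± 4.71 FPKM (limma adjusted p = 0.0087 and 0.0123). Removing WT 1 ended the call of Ndn (adjusted p = 0.0524). H19, the maternally expressed lncRNA of the Igf2 domain, fell from 4.26 ± 0.213 to 3.26 ± 0.374 FPKM (limma adjusted p = 0.0445), which did not hold when any of 5 libraries was removed (highest adjusted p 0.144, without cKO 1) or after the correction for length and GC content (0.0709).

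Among 25 measured snoRNA host genes, Snhg11 and Rian included, 3 fell, 1 rose and 21 did not pass, with a median log2 difference of −0.07. Over all genes, 15.8% were called in either direction. Snhg15 fell from 3.29 ± 0.338 to 2.15 ± 0.257 FPKM (limma adjusted p = 0.013). Snhg1 fell from 9.05 ± 0.911 to 7.15 ± 0.391 FPKM and Snhg8 from 16.4 ± 1.07 to 13.6 ± 0.691 FPKM (limma adjusted p = 0.0371 and 0.0435). Removing any of 2 libraries ended the call of Snhg15 (highest adjusted p 0.0561, without cKO 1), and any of 5 ended those of Snhg1 (0.122, without cKO 2) and Snhg8 (0.144, without cKO 1). The correction for length and GC content also ended the call of Snhg8 (0.158). Epb41l4aos rose from 13.9 ± 0.586 to 17.5 ± 2.47 FPKM (limma adjusted p = 0.0487), which failed when any 1 of the 6 libraries was removed (highest adjusted p 0.14, without WT 1).

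Lists of genes for splicing proteins and for a chromatin complex were also examined, because splicing and chromatin feature in the known biology of these lncRNAs. Of 36 genes of nuclear speckle and splicing proteins, 4 rose, 2 fell and 30 did not pass, with a median log2 difference of 0.09. The share called over all genes was 15.8%. Srsf1, Srsf2, Sf1, Qk and Celf3 of this list were not called (limma adjusted p = 0.0526, 0.524, 0.989, 0.0532 and 0.171). The genes named next are the called ones with the smallest p, and they were not chosen as partners of the 5 lncRNAs. Celf4, a neuronal splicing regulator, rose from 83.9 ± 1.01 to 119 ± 5.99 FPKM (limma adjusted p = 0.000627). Srrm4, which promotes neural microexons, rose from 19.7 ± 2.57 to 27.7 ± 3.03 FPKM (limma adjusted p = 0.0122). Rbfox3, a splicing factor of mature neurons, was lower in cKO, at 14.3 ± 1.30 against 19.2 ± 1.32 FPKM (limma adjusted p = 0.00931). The call of Srrm4 did not hold when either of 2 libraries was removed (highest adjusted p 0.0556, without cKO 1). None of 11 genes of Polycomb repressive complex 2, a chromatin complex that binds many RNAs including Meg3, was called by limma. Of the 11, 4 had an unadjusted p under 0.05, against 32.2% of all genes, and limma-voom called 2, against 19.5% of 15655 genes. The catalytic subunit gene Ezh2 stood at 12.3 ± 1.45 and 14.98 ± 1.38 FPKM in WT and cKO (limma adjusted p = 0.0807). Jarid2, which encodes an accessory subunit, stood at 7.54 ± 0.914 and 9.19 ± 0.609 FPKM (limma adjusted p = 0.0818).

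Neuronal markers leaned lower in cKO, though not all in the same direction. Of 23 such genes, 5 fell, 1 rose and 17 did not pass, with a median log2 difference of −0.13. Over all genes, 8.59% were lower and 7.22% higher. An unadjusted p under 0.05 was found for 12 of the 23, against 32.2% of all genes. The limma-voom fit called 7, against 19.5% of 15655 genes. Snap25, a gene of synaptic vesicle fusion, was lower in cKO, at 29.0 ± 1.14 against 40.3 ± 0.182 FPKM (limma adjusted p = 0.000837), and the neurofilament genes Nefl and Nefm fell as well. Of 13 interneuron markers 6 fell, of 10 astrocyte markers 9 fell and of 10 microglial markers 6 fell, and none of these 3 lists held a gene that rose. Of 14 markers of radial glia and dividing cells 3 rose and 1 fell, and of 8 oligodendrocyte lineage markers 1 rose and 2 fell. None of 10 endothelial and mural markers was called by limma, 1 had an unadjusted p under 0.05 and limma-voom called none. Of 5 erythroid genes 1 fell, and none of 5 measured genes of choroid plexus and meninges was called by limma or limma-voom or had an unadjusted p under 0.05.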

How the data were processed

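The deposited table holds FPKM values computed by the authors, named as such per the file headers, for 15703 genes in 6 libraries; its 139 trailing empty lines were dropped. Per the submitters' processing notes, bcl2fastq 1.8.4, STAR 2.5.4b, featureCounts 1.6.1, R 3.4.1, DESeq2 1.22.1 and the build mm10 were used. The labels name Trizol extraction and a TruSeq RNA kit. Which annotation release, strand setting or low-expression filter was used is not given in the sources used here. GENCODE M21 matched 15655 genes by identifier and 48 were unmatched.

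The fit was limma 3.58.1 in R 4.3.3 on log2(FPKM + 1), with trend and robust moderation, genotype as the only term, all 6 libraries (n = 3 each) and Benjamini-Hochberg adjustment over 15703 genes. How often this fit calls a change of a given size, at the share of genes called here, was not tested. Fold changes are ratios of mean FPKM. On the log2(FPKM + 1) scale the change of low genes is understated. Approximate reads were recovered by choosing a library size at which low genes gave whole reads. Between 94.8% and 96.0% of low values then fell within 0.1 of an integer, and a deliberately wrong size gave 18.3% to 21.8%. They serve for depth and for a limma-voom fit chosen after the data were seen. Python 3.11.15, pandas 2.3.3 and scipy 1.17.1 made the summaries.

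The 5 lncRNAs and all lists were chosen with earlier results of these data known. Named genes are the 5, Tcf4, the Dlk1-Dio3 genes, genes within 100 kb, up to 3 called members of each list with the smallest p (or 2 uncalled), and the 3 genes most alike in pattern. Genes of the cell type lists are mostly given as counts, and H19 and Epb41l4aos were named after their values were seen. Replicates with the same number did not deviate together: the correlations of their deviations from the group means were −0.0427, 0.109 and −0.0377.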

Additional observations from a re-analysis of the deposited data

How the results depend on the processing

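The planned count models were not run, because the table holds FPKM and no deposited counts. A limma-voom fit on recovered reads, sex as a term, and a fit on the 4 female libraries were added after the data were seen. Of 75 alternative fits of the 5 lncRNAs, 68 kept the direction and the side of the threshold. Meg3 passed with the replicate block (0.30, adjusted p = 0.0467), although equal replicate numbers did not pair the libraries, and in limma-voom (0.33, adjusted p = 0.0239). Rian passed with the filter at a mean of 1 FPKM (0.22, adjusted p = 0.049) and in limma-voom (0.24, adjusted p = 0.0179). The replicate block changed no other lncRNA call and gave 1274 genes higher and 1541 lower, against 1134 and 1349.

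With 1 library left out, the log2 difference ranged from 0.068 to 0.51 for Malat1, 0.17 to 0.39 for Meg3, 0.034 to 0.26 for Miat, 0.18 to 0.26 for Rian and −0.017 to 0.092 for Snhg11. Malat1 and Meg3 passed without cKO 3, and Snhg11 turned to −0.017 there. The log2 Rian to Meg3 ratio difference, −0.09 with all libraries, ranged from −0.21 to 0.020, turning to 0.020 without cKO 1. Genes called higher numbered 544 to 1572 and lower 830 to 1517 over these fits, and 369 and 624 with the 4 female libraries. The depth of a library put 2571 to 60881 approximate reads on each lncRNA, and the spread among the cKO libraries limits the precision of Malat1, Meg3 and Miat.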
